A study of Rattus norvegicus with 20 samples.

Results

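The platelet-derived growth factor (PDGF) ligands Pdgfa and Pdgfb and their receptors Pdgfra and Pdgfrb were followed across rat progenitor cultures and cultures treated to derive astrocytes or neurons from them. They were read from all probe sets annotated to one of these gene symbols alone. They are 4 of the 4737 genes that a probe set names alone, and have 9 of the 8799 probe sets, of which 2 were for Pdgfa, 2 for Pdgfb, 4 for Pdgfra and 1 for Pdgfrb. Probe sets of a gene are lettered from the brightest, so that Pdgfra A is the brightest of the Pdgfra probe sets.

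RNA from cultured rat cells had been hybridised to 20 Affymetrix rat arrays. The RA/Fsk group (4 cultures, 4 arrays) was low-density CCg progenitors given RA/Fsk with the aim of obtaining neurons, and the FBS group (4 cultures, 6 arrays) was the same kind of progenitors given FBS with the aim of obtaining astrocytes. The untreated groups were high-density progenitors (HD, 3 cultures, 6 arrays) and low-density CCg progenitors (LD, 3 cultures, 4 arrays). The labels expand neither CCg nor the treatments, although FBS is the usual short form of fetal bovine serum, RA of retinoic acid and Fsk of forskolin. They give no strain, age, dose or time, and CCg stands in the LD labels but not in the HD labels, so that density and CCg cannot be told apart in HD against LD. They also do not say whether the numbers called cultures here were grown separately, so each p-value rests on the spread among these samples alone, which may be technical. Of the labelled cell types, FBS cultures held more of 7 of 15 measured astrocyte markers than LD cultures did and less of 1. RA/Fsk cultures held more of 1 and less of 1 of 21 neuron markers, and more of 4 astrocyte markers and less of 0. FBS cultures also held more of the neuron markers Chgb, Calb1, Nefm, Gad1 and L1cam than LD cultures did, and less Elavl4. Over all probe sets, 25.5% differed between FBS and LD and 8.25% between RA/Fsk and LD at an adjusted p under 0.05 in limma. Both treated groups are therefore called by their treatment. Gfap and Tubb3, the usual markers of astrocytes and young neurons, have no probe set named here.

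PDGF chains are secreted as disulphide-linked dimers that bring receptor chains together, after which the receptors phosphorylate each other on tyrosines and recruit signalling proteins. The alpha receptor, Pdgfra, binds both A and B chains, while the beta receptor, Pdgfrb, binds chiefly the B chain. In the brain, Pdgfra marks oligodendrocyte precursors, whose division and survival depend on PDGF-A made by astrocytes and neurons, and Pdgfrb is carried by the mural cells of blood vessels.

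The ligand Pdgfa and the receptor Pdgfra moved in opposite directions with FBS. Pdgfa rose in FBS cultures on both of its probe sets, to 444 mean intensity units in FBS against 112 in LD on the brighter one. Pdgfra fell on its brightest probe set to 131 units in FBS, against 767 in LD. No PDGF probe set passed the test between RA/Fsk and LD or between HD and LD. The receptor's probe sets differed among themselves in where they were high, and those designed from its coding sequence were brightest in HD. Intensities are the deposited linear values, averaged within a culture and then within a group on the log2(intensity + 4.99) scale and turned back. All differences are on that log2 scale and carry an SE, the standard error.

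Passing means an adjusted p under 0.05 in limma, with the Benjamini-Hochberg correction taken over 8740 tested probe sets. In FBS against LD, 5 of the 9 PDGF probe sets passed, 2 higher and 3 lower, where 25.5% of all probe sets passed, 13.2% higher and 12.3% lower. For RA/Fsk against FBS 4 passed, 1 higher and 3 lower, where 18.4% of all did, 8.27% higher and 10.1% lower. In FBS against HD 6 passed, 3 higher and 3 lower, where 21% did, 11.3% higher and 9.7% lower. Between RA/Fsk and HD 3 passed, all lower, where 10.2% of all passed and 5.32% passed as lower. Between RA/Fsk and LD the count was 0 by limma, where 8.25% of all passed. At an unadjusted p under 0.05 it was 1 of 9, where 21.1% of all probe sets were. In HD against LD it was also 0 by limma, where 0.858% of all passed, and at an unadjusted p under 0.05 it was 3 of 9, where 13.8% of all were. Comparisons with a group in common use the same cultures of that group, so their values are not independent.

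Arrays had medians of 41 to 57.5 units and a 2% trimmed mean of 200, and arrays of one culture correlated at r = 0.951 to 0.975, lowest for the pair of FBS culture 3. The log2 ratio of the 5′ to the 3′ GAPDH control, a sign of how whole the RNA was, lay between -0.47 and -0.11 in RA/Fsk, -0.16 and -0.01 in FBS, -0.20 and 0.05 in HD, and -0.47 and -0.21 in LD. It was 0.27 higher in FBS than in LD (exact permutation test, two-sided p = 0.0286, the smallest this design allows) and 0.26 higher in HD than in LD (p = 0.1, also the smallest possible). Its part in the results was not tested beyond the fits that hold it as a covariate, whose values are given beside the results they change. The 8 control probe sets for mouse and yeast sequences, which should find no target in rat RNA, reached at most 7.9 to 56.5 units on an array, with a median of 17.9, and serve here as a guide to background.

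The promoters of Pdgfa and Pdgfra are shown because these genes carry the opposite changes with FBS. Each is the 250 bases before the start that RefSeq gives on build GRCr8, written 5′ to 3′ on the gene's strand, with letters of a searched motif in capitals. That of Pdgfa is chr12:20759116-20759365 on the plus strand, beside the gene at chr12:20759366-20780337. That of Pdgfra is chr14:33408517-33408766 on the minus strand. The Pdgfra gene spans chr14:33360027-33408604, so part of its window lies inside the outer bounds of the gene.
Pdgfa: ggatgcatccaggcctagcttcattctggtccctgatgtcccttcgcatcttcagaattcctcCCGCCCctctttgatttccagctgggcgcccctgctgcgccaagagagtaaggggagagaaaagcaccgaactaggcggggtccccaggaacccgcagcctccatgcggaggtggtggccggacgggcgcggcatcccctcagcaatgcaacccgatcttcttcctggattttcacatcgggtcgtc
Pdgfra: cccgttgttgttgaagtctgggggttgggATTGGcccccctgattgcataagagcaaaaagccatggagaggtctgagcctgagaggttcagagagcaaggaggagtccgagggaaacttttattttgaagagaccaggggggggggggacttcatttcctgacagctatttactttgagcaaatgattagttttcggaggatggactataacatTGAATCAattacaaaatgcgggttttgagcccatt

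The Pdgfa window is 60.8% G and C, the Pdgfra window 47.2%, and the median of all 33469 rat promoter windows is 51.2%. On both strands, 7 motifs were searched. The GC box GGGCGG, found in 30.5% of all windows, occurs in Pdgfa on the other strand, 187 bases before the start. Pdgfra holds a CCAAT box, CCAAT, on the other strand 221 bases before the start, as 34% of windows hold one somewhere. It also holds TGAATCA 35 bases before the start, in the part of the window inside the gene's outer bounds. This run matches TGANTCA, a loose form of the AP-1 letters in which N is any base, which 6.34% of windows hold. The TATA box TATAAA (12.9% of windows), the cAMP response element TGACGTCA (1.59%), the nuclear receptor half-site AGGTCA (14.1%) and the Egr site GCGNGGGCG (4.29%), whose letters can overlap a GC box, are in neither window. A match is a run of letters and no measurement of binding.

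Pdgfa encodes the A chain of PDGF, the ligand of oligodendrocyte precursors. Pdgfa A stood at 106, 97.9, 99.8 and 74.6 units in RA/Fsk cultures 1, 2, 3 and 4, at 386, 460, 448 and 490 in FBS cultures 1, 2, 3 and 4, at 134, 150 and 139 in HD cultures 1, 2 and 4, and at 114, 99.3 and 126 in LD cultures 1, 3 and 4. The 4 FBS cultures lay well above all others, and HD cultures lay between them and the overlapping RA/Fsk and LD cultures.
Pdgfa A rose with FBS over LD by 1.94 ± 0.16 (SE, 4 against 3 cultures, adjusted p = 1.7e-07), which is 3.83-fold on this scale. It rose by 1.62 ± 0.16 in FBS over HD (adjusted p = 1.48e-06) and fell in RA/Fsk relative to FBS, at -2.18 ± 0.15 (adjusted p = 2.14e-08). RA/Fsk cultures did not pass against LD, at -0.25 ± 0.16 (95% interval -0.59 to 0.09, adjusted p = 0.425), and HD cultures did not either, at 0.31 ± 0.17 (interval -0.05 to 0.67, adjusted p = 0.444). Every HD culture lay above every LD culture, as in 7.81% of all probe sets, and 16.9% had a difference at or above this one.

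Pdgfa B, designed from a different sequence record of the same gene, read 80.4, 66.2, 45.8 and 83.4 units in RA/Fsk cultures 1 to 4, 195, 189, 188 and 236 in FBS cultures 1 to 4, 90.8, 112 and 101 in HD cultures 1, 2 and 4, and 82, 86.3 and 89.7 in LD cultures 1, 3 and 4. It gave the same order of group means as Pdgfa A, and again each FBS culture was above every other culture. The rise in FBS was 1.18 ± 0.20 over LD (adjusted p = 0.00028) and 0.96 ± 0.20 over HD (adjusted p = 0.00196), and the difference of RA/Fsk from FBS was -1.51 ± 0.19 (adjusted p = 2.03e-05). Within a culture, Pdgfa B minus Pdgfa A averaged -1.12 log2 in FBS and -0.37 in LD, so the rise read 0.76 less on Pdgfa B (exact permutation test, two-sided p = 0.0286, the smallest possible, and 0.0981 after Benjamini-Hochberg adjustment over 24 such tests).

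RA/Fsk cultures held less Pdgfa than HD cultures on Pdgfa A, by -0.56 ± 0.16 (adjusted p = 0.0365). Pdgfa B differed by -0.55 ± 0.20 and did not pass (adjusted p = 0.104). The Pdgfa A call against HD was close to the threshold, and it was lost with the GAPDH ratio as a covariate (-0.55, adjusted p = 0.101) and when any 1 of the 3 HD cultures was left out, at adjusted p = 0.0694 without culture 1, 0.125 without culture 2 and 0.092 without culture 4. It was lost as well without FBS culture 2 (0.0525) or 3 (0.0572), which share in the estimate of the spread, and without RA/Fsk culture 2 (0.0539) or 4 (0.0895). In the fit with the culture number as a replicate block it did not pass either (-0.55, adjusted p = 0.0606).

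**Figure D1:**
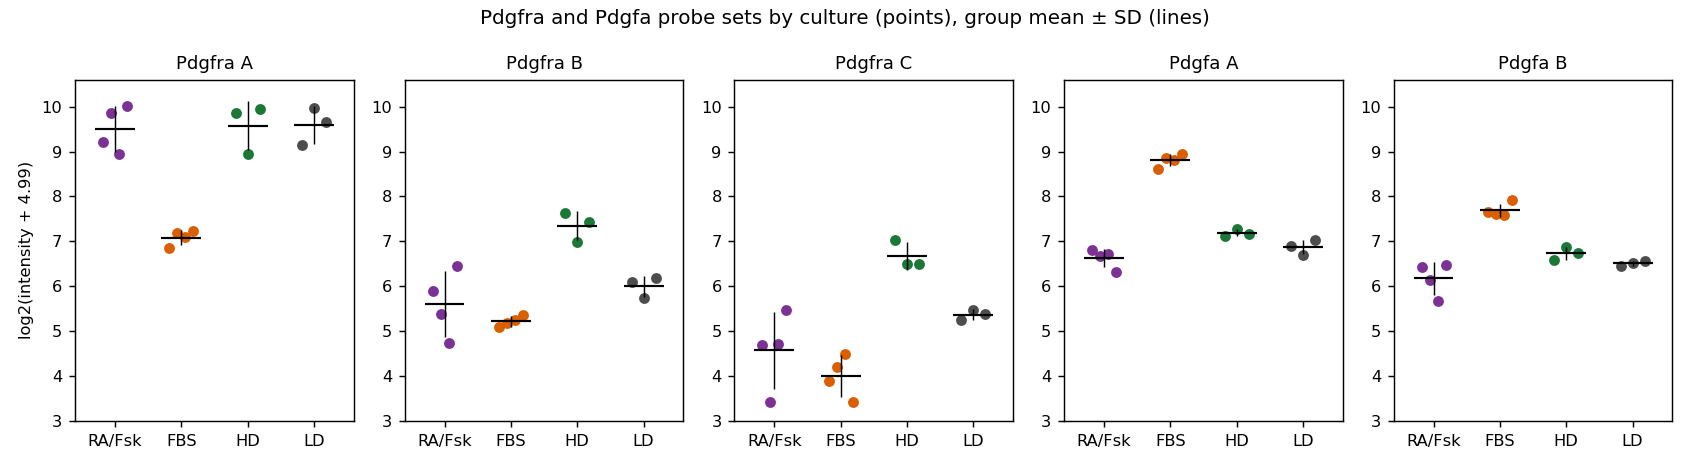
Each panel plots log2(intensity + 4.99) on the vertical axis for 1 probe set, with a point per culture in the RA/Fsk, FBS, HD and LD groups and a line for the group mean with its SD. On Pdgfra A the 4 FBS cultures (110 to 144 units) lie below all others (487 to 1030), on Pdgfra B and C the HD cultures are highest, and on both Pdgfa probe sets the FBS cultures are highest.

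Pdgfb encodes the B chain, and its probe sets were near background. Pdgfb A exceeded the brightest mouse or yeast control on 5 of 20 arrays and Pdgfb B on 2. Pdgfb A read 17.7, 6.8, 8.8 and 7 units in RA/Fsk cultures 1 to 4, 13.7, 33.9, 25.1 and 29 in FBS cultures 1 to 4, 9.39, 9.4 and 8.17 in HD cultures 1, 2 and 4, and 34.6, 15.3 and 12.8 in LD cultures 1, 3 and 4. The FBS and LD cultures overlapped, and every HD culture lay below every FBS and LD culture.
Pdgfb A passed as higher in FBS than in HD, by 1.07 ± 0.35 (adjusted p = 0.0353), and as lower in RA/Fsk than in FBS, by -1.02 ± 0.32 (adjusted p = 0.0351). It did not pass in FBS against LD (0.28 ± 0.35, adjusted p = 0.629). The arrays of FBS culture 3 read 49.9 and 11.5 units. The call against FBS in RA/Fsk was lost with the GAPDH ratio as a covariate (-0.62, adjusted p = 0.313), with each array as its own sample (0.0745), with the culture as a random block (0.0865) and with only those groups fitted (0.0524). The call against HD was lost with median centring (0.88, adjusted p = 0.0535). With the second array of FBS culture 3 alone, marked 3r, neither comparison passed, at 0.86 in FBS against HD (adjusted p = 0.145) and -0.80 in RA/Fsk against FBS (adjusted p = 0.151). Both calls were also lost without FBS culture 2, 3 or 4, with adjusted p from 0.071 to 0.101 for FBS against HD and from 0.0745 to 0.11 for RA/Fsk against FBS. Without HD culture 1, 2 or 4 the call against HD was lost, at 0.0823, 0.0851 and 0.108, and without RA/Fsk culture 2, 3 or 4 the other was, at 0.0929, 0.0652 and 0.0923. Pdgfb B ranged from 2.48 to 29.4 units over all cultures, differed up to 15.6-fold between arrays of one culture and passed in no comparison.

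Pdgfra encodes the alpha receptor. Pdgfra A, designed from an expressed sequence tag, read 590, 932, 487 and 1030 units in RA/Fsk cultures 1 to 4, 110, 140, 132 and 144 in FBS cultures 1 to 4, 919, 491 and 982 in HD cultures 1, 2 and 4, and 562, 999 and 803 in LD cultures 1, 3 and 4. The FBS cultures stood below all others with a narrow spread, and the RA/Fsk, HD and LD cultures covered the same range.
Pdgfra A fell in FBS against LD, to a level 5.69-fold lower on the plus-4.99 scale (adjusted p = 3.56e-06), and against HD, at -2.50 ± 0.28 (adjusted p = 4.45e-06). It was 2.43 ± 0.26 higher in RA/Fsk than in FBS (adjusted p = 3.5e-06). Of all 8740 probe sets, 0.4% had a difference of FBS from LD at or below this one.
RA/Fsk differed from LD by -0.08 ± 0.28 (95% interval -0.67 to 0.50) and HD from LD by -0.01 ± 0.30 (interval -0.63 to 0.62). In bulk RNA such as this, fewer cells with a transcript and less of it in each cell cannot be told apart.

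Pdgfra B and C were designed from the coding sequence, both from one record, and are not independent of each other. Pdgfra B read 54.5, 36.6, 21.7 and 81.9 units in RA/Fsk cultures 1 to 4, 29, 31.5, 32.7 and 36.5 in FBS cultures 1 to 4, 193, 122 and 167 in HD cultures 1, 2 and 4, and 63.1, 48.5 and 67.5 in LD cultures 1, 3 and 4. HD cultures were highest with no overlap with any other group, FBS cultures lay below LD cultures, and RA/Fsk cultures spread over the range of both.
Pdgfra B fell in FBS against HD, at -2.13 ± 0.33 (adjusted p = 0.000117), and in RA/Fsk against HD, at -1.74 ± 0.33 (adjusted p = 0.00256). Against LD, FBS cultures differed by -0.78 ± 0.33 and did not pass (adjusted p = 0.0968), and this difference was -1.32 and passed with the GAPDH ratio as a covariate (adjusted p = 0.0237).

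Pdgfra C read 20.7, 5.7, 21.3 and 39.5 units in RA/Fsk cultures 1 to 4, 9.95, 13.2, 17.6 and 5.7 in FBS cultures 1 to 4, 126, 85.2 and 85.5 in HD cultures 1, 2 and 4, and 33, 39.7 and 36.7 in LD cultures 1, 3 and 4. The HD cultures were again above all others, and the FBS cultures were below all LD cultures. The readings in FBS were near background, since 1 of 6 FBS arrays exceeded the brightest mouse or yeast control, against 6 of 6 HD arrays and 2 of 4 LD arrays. In RA/Fsk 2 of 4 arrays did.
Pdgfra C fell in FBS against LD, at -1.37 ± 0.40 (adjusted p = 0.0176). This call was lost without LD culture 3 (-1.31, adjusted p = 0.0567) or without FBS culture 4 (-1.18, adjusted p = 0.0568). Against HD it fell in FBS, at -2.68 ± 0.40 (adjusted p = 9.62e-05), and in RA/Fsk, at -2.10 ± 0.40 (adjusted p = 0.00288). The sizes of these differences depend on the pseudocount. Over 29 alternative fits the fall against HD passed in all, at -3.06 to -1.26 in FBS and -2.40 to -1.06 in RA/Fsk.

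In HD against LD, Pdgfra B differed by 1.35 ± 0.35 and Pdgfra C by 1.31 ± 0.43, each with all 3 HD cultures above all 3 LD cultures. Neither passed after adjustment (adjusted p = 0.088 and 0.182). Of all probe sets, 7.81% had every HD culture above every LD culture, while 0.698% had a difference at or above that of Pdgfra B. Pdgfra B passed when RA/Fsk culture 3 was left out (1.35, adjusted p = 0.0294), and over the fits without 1 culture its adjusted p ran from 0.0294 to 0.303. With the GAPDH ratio as a covariate it was 0.82 and did not pass (adjusted p = 0.28).

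The Pdgfra probe sets thus disagreed, and the disagreement was measured within cultures. Pdgfra B minus Pdgfra A averaged -3.90 log2 in RA/Fsk, -1.86 in FBS, -2.23 in HD and -3.59 in LD. FBS cultures were separate from RA/Fsk and LD cultures on this measure, and so were HD cultures. The difference between groups was -2.04 for RA/Fsk against FBS, -1.66 for RA/Fsk against HD and 1.73 for FBS against LD, each at an exact permutation p of 0.0286 (two-sided), the smallest possible, and 0.0981 after Benjamini-Hochberg adjustment over 24 tests. For HD against LD it was 1.35 (exact p = 0.1, the smallest possible, 0.2 adjusted). In the order of these comparisons, the GAPDH log2 ratio differed by -0.24, -0.23, 0.27 and 0.26, in the same directions. Between RA/Fsk and LD the ratio differed by 0.04 and Pdgfra B minus A by -0.31. Between FBS and HD they differed by 0.01 and 0.37. The part of the GAPDH ratio in this disagreement was not tested. Pdgfra C minus Pdgfra A gave -2.03 for RA/Fsk against HD. On 2 of 4 RA/Fsk arrays Pdgfra C exceeded the brightest mouse or yeast control, so this size depends on the pseudocount. Since Pdgfra C was near background in FBS, a further fall there could not be read, and Pdgfra C minus A in FBS is plotted but not set against the other groups.
Pdgfra C minus Pdgfra B differed between groups by -0.59 to 0.18, with exact permutation p-values from 0.114 to 0.9 over the 6 comparisons, under the same limits in FBS and RA/Fsk. The differences of FBS from LD and from HD were below 0 on Pdgfra A, B and C alike, although Pdgfra B did not pass against LD. In RA/Fsk against HD, Pdgfra B and C fell while Pdgfra A differed by -0.07 ± 0.28 (adjusted p = 0.916). No value here tells which probe set follows the whole transcript.

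**Figure D2:**
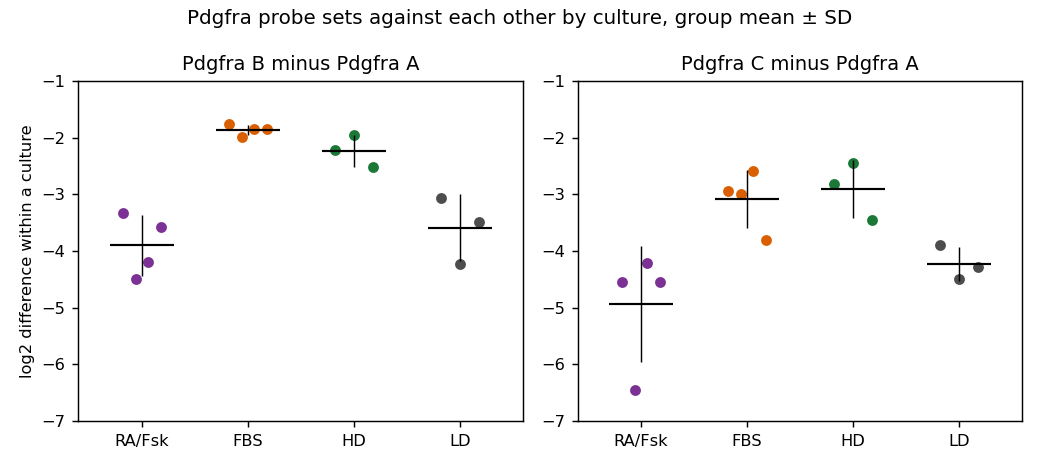
The vertical axis is the log2 difference between 2 Pdgfra probe sets within a culture, Pdgfra B minus A on the left and C minus A on the right, with a point per culture and a line for each group's mean with its SD. For B minus A, RA/Fsk and LD cultures lie lowest and FBS and HD cultures highest, with means of -3.90 in RA/Fsk, -1.86 in FBS, -2.23 in HD and -3.59 in LD. Pdgfra C was near background in FBS, and in RA/Fsk it exceeded the brightest mouse or yeast control on 2 of 4 arrays.

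Pdgfra D, from another expressed sequence tag, was the dimmest, at 1.6 to 7.74 units in all cultures, and exceeded the brightest mouse or yeast control on 1 of 20 arrays. Its difference of FBS from LD, -0.59 ± 0.21, passed at an adjusted p of 0.0495, which 9 of the 28 alternative fits that tested it kept. Against HD, FBS cultures differed by -0.56 ± 0.21 and did not pass (adjusted p = 0.073), and passed with the GAPDH ratio as a covariate (-0.56, adjusted p = 0.0477). Readings this low carry little information on the receptor.

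Pdgfrb encodes the beta receptor, and its 1 probe set was dim in every group, at 36.7, 11, 17.2 and 12.8 units in RA/Fsk cultures 1 to 4, 32.9, 12.4, 15.1 and 46.2 in FBS cultures 1 to 4, 15.4, 16.5 and 10.7 in HD cultures 1, 2 and 4, and 25.4, 11.9 and 10.3 in LD cultures 1, 3 and 4. All groups overlapped. It exceeded the brightest mouse or yeast control on 8 of 20 arrays, and arrays of one culture differed by up to 4.38-fold. FBS differed from LD by 0.53 ± 0.42 (95% interval -0.36 to 1.42, adjusted p = 0.414), and it passed in no comparison. With the GAPDH ratio as a covariate that difference was -0.22 (adjusted p = 0.783), so it had no settled sign.

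**Figure D3:**
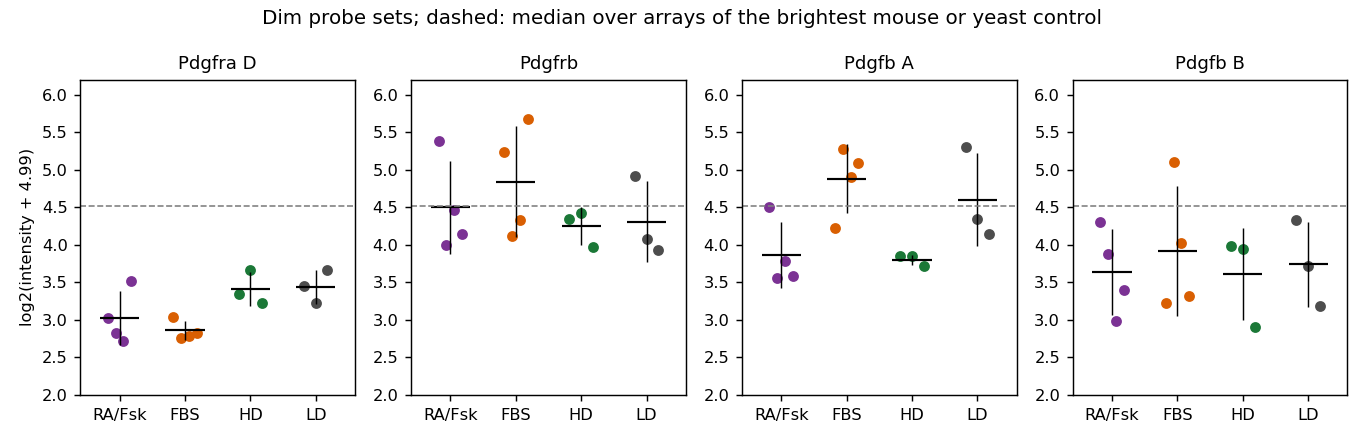
Log2(intensity + 4.99) is plotted for the 4 dim probe sets, with a point per culture and a line for each group's mean with its SD, and the dashed line is the median over arrays of the brightest mouse or yeast control, 17.9 units. Most cultures lie below the dashed line in every panel, and the FBS cultures of Pdgfb A lie above all HD cultures.

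**Figure D4:**
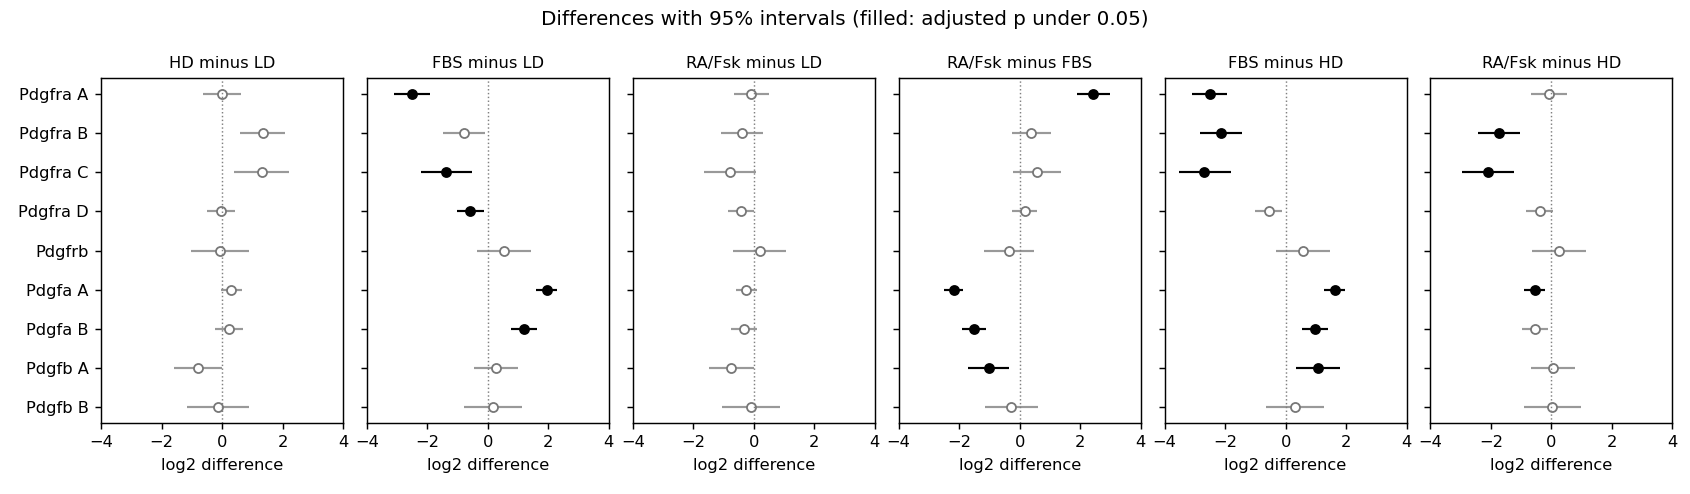
Each panel is a comparison, with the log2 difference of the first-named group minus the second on the horizontal axis and the 9 PDGF probe sets down the page, bars marking 95% intervals and filled points an adjusted p under 0.05. Filled points lie left of 0 for Pdgfra A and right of 0 for Pdgfa A and B in FBS minus LD, and no point is filled in HD minus LD or RA/Fsk minus LD.

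Across the 14 cultures, Pdgfa A and Pdgfra A correlated at r = -0.93, as a description, since the FBS cultures set both ends of the relation and all values of a culture come from the same arrays. The most similar profiles differed by probe set. Among 4087 candidate probe sets with 1 gene symbol and adequate brightness, the genes closest to Pdgfra A were Macroh2a1, a histone variant (r = 0.976), Tmpo, a protein of the inner nuclear membrane (0.963), and Scfd2 (0.953). The closest to Pdgfra B were Top2a, the topoisomerase of dividing cells (0.938), Calcrl, a receptor of calcitonin-family peptides (0.922), and Casp2, a caspase (0.918), and the closest to Pdgfra C were Psat1, an enzyme of serine synthesis (0.941), Cyp51, an enzyme of sterol synthesis (0.926), and Lbr, the lamin B receptor (0.916).
Slit3, a secreted guidance factor (0.979), Igfbp3, which binds insulin-like growth factors (0.976), and Lxn, a carboxypeptidase inhibitor (0.973), were closest to Pdgfa A. Dlx5, a homeobox factor (0.969), Igfbp3 (0.96) and Fstl1, a secreted glycoprotein (0.952), were closest to Pdgfa B. For the dim probe sets the best were Nop58 (0.894), Myh1 (0.872) and Hnrnpd (0.864) for Pdgfra D, Sh2b3 (0.786), Shh (0.763) and Tns1 (0.761) for Pdgfrb, Dock8 (0.889), Cav3 (0.88) and Psmb9 (0.866) for Pdgfb A, and Sctr (0.787), Grhpr (0.76) and Fxyd1 (0.76) for Pdgfb B.

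Several genes of a list of proteins that process or bind PDGF chains, or are otherwise tied to the family, rose with FBS. Of the 10 measured genes of 14 listed, 5 rose and 0 fell in FBS against LD. Over all probe sets 13.2% rose and 12.3% fell there. The median difference was 1.37 for the list and -0.09 for all probe sets. Plat, tissue plasminogen activator, which activates PDGF-C, a chain not among the measured genes, rose by 4.07 ± 0.24 (adjusted p = 3.67e-09). Pcsk6, a proprotein convertase, rose by 3.36 ± 0.17 and Furin, which cleaves PDGF precursors, by 2.12 ± 0.17. Cav1, the caveolar coat protein, rose by 2.98 ± 0.31. Nrp1, a co-receptor of growth factors, rose too (adjusted p = 0.000278), at 52.6 units in FBS and 8.74 in LD. It exceeded the brightest mouse or yeast control on 1 of 4 LD arrays, so the size of its rise is not given.
With RA/Fsk, Plat (3.02 ± 0.24) and Cav1 (1.45 ± 0.31) rose over LD and 0 fell, where 8.25% of all probe sets passed. The median was 0.38 beside -0.05 for all probe sets. In HD against LD, Cav1 rose (1.77 ± 0.34, adjusted p = 0.0156), with a median of 0.09 beside -0.08. RA/Fsk cultures held less Pcsk6 (-3.08 ± 0.16), Furin (-1.64 ± 0.16), Nrp1 (adjusted p = 0.000307, near background in RA/Fsk at 9.38 units), Cav1 (-1.53 ± 0.29) and Plat (-1.05 ± 0.22) than FBS cultures, and more Ncam1, a neural adhesion molecule (0.77 ± 0.18).

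The receptors nearest in structure and their ligands, such as Kit, Csf1r and Flt1, passed in no comparison with LD. Csf1, Vegfa and Vegfb exceeded the brightest mouse or yeast control on every array. Csf1r, at 5.63 to 7.82 units, did so on 0 arrays of each group, and Kitlg on 0 of 4 RA/Fsk and 1 of 4 LD arrays. For such dim genes a missing call says little about change. Of 10 measured of 14 listed, 0 passed by limma in RA/Fsk, FBS or HD against LD. At an unadjusted p under 0.05 there were 0 in RA/Fsk and 3 in HD, where 21.1% and 13.8% of all probe sets were. Over all probe sets 8.25% passed by limma in RA/Fsk, 25.5% in FBS and 0.858% in HD against LD. Kit, the stem cell factor receptor, differed by 1.06 ± 0.39 in FBS against LD and did not pass (adjusted p = 0.0547). Relative to FBS, it fell in RA/Fsk, at -1.12 ± 0.36 (adjusted p = 0.038). Kit exceeded the brightest mouse or yeast control on 2 of 4 LD and 3 of 4 RA/Fsk arrays, so these sizes depend on the pseudocount. The medians were 0.07 for RA/Fsk, 0.19 for FBS and 0.01 for HD against LD, beside -0.05, -0.09 and -0.08 over all probe sets in that order.

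Of the proteins that carry the signal inside the cell, 41 of 65 listed were measured. In FBS against LD, 5 rose (12.2%) and 7 fell (17.1%), near the 13.2% and 12.3% of all probe sets, and the median was 0.10 beside -0.09. The count is therefore no result about the list. Pik3r1, the regulatory subunit of phosphoinositide 3-kinase that docks on the receptors, fell by 2.24 on the log2 scale (SE 0.29, adjusted p = 1.62e-05). Its partner Pik3cb, a catalytic subunit, fell by 1.03 (SE 0.26), and Fyn, a kinase of the Src family, by 0.64 (SE 0.14). In FBS Pik3r1 stood at 13.7 units and exceeded the brightest mouse or yeast control on 2 of 6 arrays, so the size of its fall depends on the pseudocount.
Prkca, protein kinase C alpha, averaged 65.4 units in RA/Fsk, 27.3 in FBS, 34.8 in HD and 5.13 in LD. It passed as higher in RA/Fsk (adjusted p = 5.46e-05), FBS (adjusted p = 0.00121) and HD (adjusted p = 0.0131) than in LD. In LD it exceeded the brightest mouse or yeast control on 0 of 4 arrays, so the 3 rises share a level at background and no size is given. It was the 1 gene of this list that passed in RA/Fsk against LD and in HD against LD, where the list's medians were -0.04 in RA/Fsk and 0.03 in HD, beside -0.05 and -0.08 over all. Pik3r1 was also higher in RA/Fsk than in FBS (1.91 ± 0.26, adjusted p = 6.59e-05), as Pdgfra A was.

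Many genes that growth factors including PDGF switch on within hours rose with FBS. Of 27 measured of 33 listed, 14 rose and 1 fell in FBS against LD, with a median of 0.87 beside -0.09. Over all probe sets 13.2% rose and 12.3% fell there. Ccn1, a matricellular protein, rose by 4.07 ± 0.28, Junb, an AP-1 transcription factor, by 2.61 ± 0.32, Klf4, a zinc finger factor, by 2.32 ± 0.33, and Sgk1, a kinase, by 1.24 ± 0.17. In LD, Ccn1, Junb and Klf4 each exceeded the brightest mouse or yeast control on 2 of 4 arrays, as Plat did, so the sizes of these rises depend on the pseudocount. Myc was the 1 that fell, by 0.93 on the log2 scale (SE 0.25, adjusted p = 0.00982). Serum holds many growth factors, and what moves these genes was not tested.
Against LD, 6 rose and 1 fell in RA/Fsk, where 8.25% of all probe sets passed, with a median of 0.26 beside -0.05. The chemokine Ccl2, known as a PDGF-induced gene of mouse fibroblasts, rose by 4.71 ± 0.27 (adjusted p = 1.34e-08), Egr2 by 3.31 ± 0.40, Fos by 1.47 ± 0.31 and Sgk1 by 0.87 ± 0.17. Dusp1, a phosphatase of MAP kinases, fell by 1.57 on the log2 scale (SE 0.37, adjusted p = 0.0141). Dusp1 exceeded the brightest mouse or yeast control on 1 of 4 RA/Fsk arrays and Egr2 on 2 of 4 LD arrays. The sizes of these differences therefore depend on the pseudocount. In HD against LD 0 passed by limma, where 0.858% of all probe sets did. There 5 had an unadjusted p under 0.05, where 13.8% of all probe sets had, and the median was -0.21 beside -0.08.

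Since Pdgfra marks oligodendrocyte precursors, the other markers of that lineage were set beside it. In FBS against LD 13.2% of all probe sets rose and 12.3% fell. Of 9 measured of 17 listed markers, Pdgfra included, 3 rose and 3 fell there, with a median of -0.30 beside -0.09. Those that fell were Pdgfra itself, Ptprz1, a receptor phosphatase (-1.70 ± 0.30, adjusted p = 0.000356), and St8sia1, a ganglioside synthase (-0.76 ± 0.23, adjusted p = 0.0206). Cd9, a tetraspanin (2.86 ± 0.14), and the chondroitin sulphate proteoglycans Ncan (2.73 ± 0.22) and Vcan (0.84 ± 0.25) rose. What the rises and falls mean for the number of precursors was not tested.
Sox10, a transcription factor of the whole lineage, differed by -0.30 ± 0.26 (adjusted p = 0.453), Bcan by -0.41 ± 0.21 (adjusted p = 0.169), and Cspg4, the NG2 proteoglycan, by 0.77 ± 0.42 (adjusted p = 0.214), and these did not pass. The summed intensity of the 8 markers other than Pdgfra was 5416 to 5968 in FBS and 2745 to 3297 in LD. Cd9 set that direction, at 3440 units in FBS and 468 in LD. The other 7 were also summed without it, a choice made after seeing the data. They reached 1942 to 3683 in RA/Fsk, 1922 to 2307 in FBS, 2390 to 3520 in HD and 2350 to 2782 in LD. That sum was lower in FBS than in LD, and the RA/Fsk range overlapped that of FBS. The direction between FBS and LD thus rested on whether Cd9 was counted. The brightest of the 7 in LD were Bcan, at 1260 units in LD and 941 in FBS, and Ptprz1, at 645 and 195. With RA/Fsk against LD, Cd9 (1.94 ± 0.14) and Ncan (0.76 ± 0.22) rose and Vcan fell (-0.98 ± 0.25), where 8.25% of all probe sets passed. In HD against LD 0 passed by limma, with 2 at an unadjusted p under 0.05, where 0.858% and 13.8% of all probe sets were. Olig1 and Olig2 have no probe set named here.

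Of 12 measured markers of mature oligodendrocytes and myelin, 20 being listed, 1 rose and 2 fell in FBS against LD. Over all probe sets 13.2% rose and 12.3% fell, so this count is no result about the list. Mbp, myelin basic protein, rose (1.46 ± 0.49, adjusted p = 0.0373), while Ugt8, which makes myelin galactolipids (-1.29 ± 0.26), and Myrf, a regulator of myelin genes (-0.73 ± 0.23), fell. Between RA/Fsk and LD, where Pdgfra did not pass, Mbp (2.45 ± 0.49), Sirt2 (1.34 ± 0.18) and Cnp (0.78 ± 0.15) rose and 0 fell. Over all probe sets 8.25% passed in that comparison.

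Mural cells and fibroblasts carry Pdgfrb, and fibroblasts also Pdgfra. In FBS against LD 13.2% of all probe sets rose and 12.3% fell. Of 22 measured markers of 30 listed, Pdgfrb included, 5 rose and 1 fell there, with a median of 0.07 beside -0.09. Fn1, fibronectin, rose by 5.84 ± 0.29, Myl9, a myosin light chain, by 4.24 ± 0.37, Tagln, an actin-binding protein of smooth muscle, by 3.45 ± 0.38, and Col5a1, a collagen chain, by 2.43 ± 0.21. Postn, periostin, rose too (adjusted p = 1.65e-07), at 133 units in FBS and 1.99 in LD, where it exceeded the brightest mouse or yeast control on 0 of 4 arrays, so no size is given. Thy1, a surface glycoprotein, fell (-1.05 ± 0.33, adjusted p = 0.0266). Thy1 exceeded the brightest mouse or yeast control on 1 of 6 FBS arrays and Tagln on 2 of 4 LD arrays. Their sizes therefore depend on the pseudocount. The other 16 did not pass, among them the collagen chains Col1a1 (-0.17 ± 0.28) and Col3a1 (-0.42 ± 0.27), decorin, Dcn (0.14 ± 0.35), and desmin, Des (-0.01 ± 0.22). The summed intensity of the 21 markers other than Pdgfrb was 1147 to 1750 in RA/Fsk, 4362 to 7336 in FBS, 746 to 930 in HD and 972 to 1192 in LD.
A few members set the sum in FBS, with Fn1 at 2330 units in FBS and 36 in LD, and Myl9 at 1020 in FBS and 49.2 in LD. Without Fn1 and Myl9, again a choice made after seeing the data, the other 19 summed to 842 to 1408 in RA/Fsk, 1534 to 2036 in FBS, 701 to 873 in HD and 883 to 1118 in LD. Either sum was highest in the FBS cultures, where Pdgfa was high and Pdgfra A low, and its part in those changes was not tested. The endothelial markers, 9 of 16 listed, passed in 0 comparisons with LD by limma, with 0 at an unadjusted p under 0.05. Over all probe sets 25.5% passed in FBS against LD, and 21.1% in RA/Fsk and 13.8% in HD against LD had an unadjusted p under 0.05. The endothelial sums overlapped, at 275 to 436 in RA/Fsk, 251 to 330 in FBS, 259 to 336 in HD and 318 to 398 in LD. Astrocyte markers summed to 9417 to 11288 in RA/Fsk, 7455 to 10076 in FBS, 4736 to 6202 in HD and 3347 to 3984 in LD. Aldoc, S100b and Glul made up most of that sum in RA/Fsk, at 4350, 2350 and 1550 units. RA/Fsk cultures held less Slc1a3, Mt3, Agt, Clu and Cpe than FBS cultures, and more Aldoc and Fabp7. The part of astrocyte content in the Pdgfa change was not tested.

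**Figure D5:**
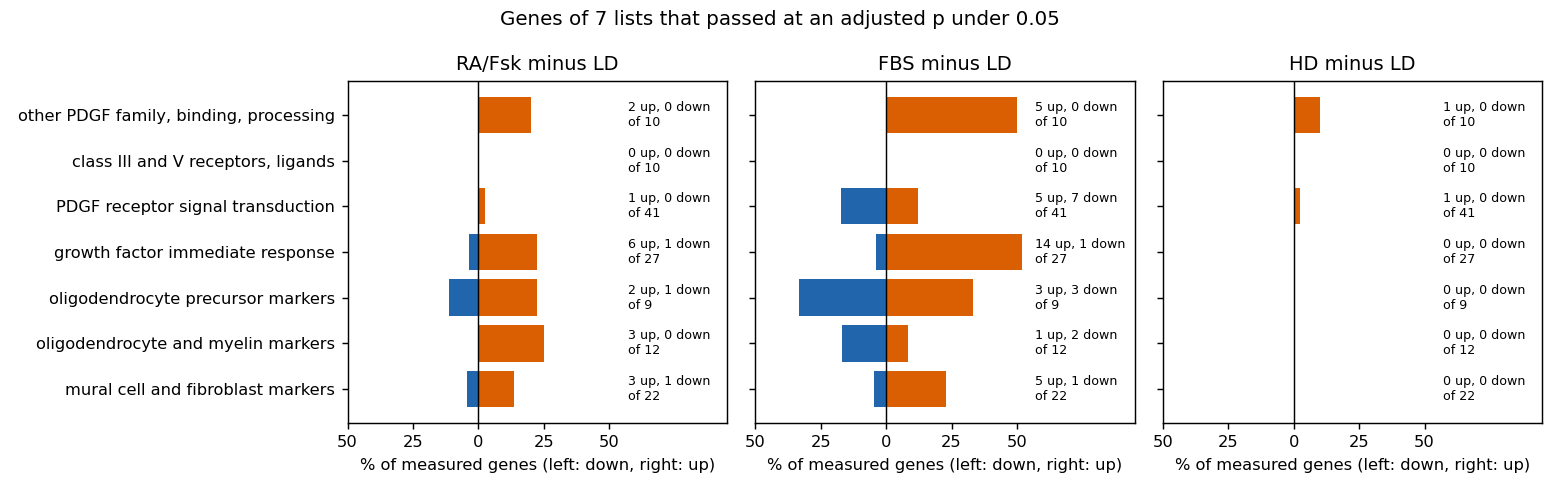
Bars give the percentage of each list's measured genes that passed at an adjusted p under 0.05, lower to the left and higher to the right, with the counts beside them, for RA/Fsk, FBS and HD against LD. The immediate response list has 14 of 27 genes higher in FBS and 6 of 27 higher in RA/Fsk, the receptors related to PDGF receptors and their ligands have 0 in all 3 comparisons, and HD against LD has 2 genes in all.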

How the data were processed

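Expression was measured on 20 Affymetrix rat arrays. The authors deposited 1 table of linear intensity values. How background, probe summary and scaling were handled is not given in the sources used here. The arrays' number limits the precision.

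Arrays with the same group and number were averaged into 14 cultures on the log2(intensity + 4.99) scale, 4.99 being 10% of the median positive value, 49.9. The 59 control probe sets were left out. Of the 8740 others, 7006 carry 1 gene symbol in the platform annotation, 308 several and 1426 none. One fit of the 4 groups was made with limma 3.58.1 under R 4.3.3 (lmFit, eBayes with trend, 10 residual and 6.13 prior degrees of freedom). The fit was tested on simulated data. Promoters and figures were handled in Python 3.11.15, and promoter sequences are RefSeq's.

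The members and gene lists were chosen with earlier results of these data known. Genes are named if they are members, the 3 genes most like a member, or among the 4 of a list with the smallest adjusted p in FBS or RA/Fsk against LD. Others (Nrp1, Myc, Kit, Dusp1, Ncam1 and lineage markers) were chosen after their values were seen. A gene's brightest probe set stands for it in a list.

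Deviations from group means of LD and RA/Fsk cultures with the same number correlated at 0.33, 0.16 and 0.11, so the numbers may mark pairs there. The main fit used no pairing, and the values given for RA/Fsk against LD come from it. With the number as a replicate block, 0 PDGF probe sets passed in RA/Fsk against LD, as without it. Other normalizations, pseudocounts, filters, replicate units, variance models and each culture left out were tried as alternatives.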

Additional observations from a re-analysis of the deposited data

Results flagged for a closer look

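Pdgfa B in FBS culture 4 stood at 236 units, against 195, 189 and 188 in the other FBS cultures, and its gap to the nearest of them exceeds Dixon's 95% critical value for 4 samples over the range of the group on the log2 scale. Of 18 sets of FBS or RA/Fsk cultures checked, 1 was singled out, and chance singles out about 1 in 20. On Pdgfa A the same culture was the highest of its group too, at 490 units. Without FBS culture 4, the rise of Pdgfa in FBS over LD passed on both probe sets.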

How the results depend on the processing

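Over 30 alternative settings, 14 of them leaving out 1 culture, 1488 of 1566 differences of PDGF probe sets kept their side of the threshold, 52 lost a call, 26 gained one and 0 called differences changed sign. Pdgfra A, Pdgfa A and Pdgfa B passed in all 30 for FBS against LD, RA/Fsk against FBS and FBS against HD, and no PDGF probe set passed in RA/Fsk against LD in any of them. Filters removed dim probe sets from some fits, so Pdgfra D, Pdgfrb and Pdgfb had 28 values and Pdgfra C 29.

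In HD against LD, the count of PDGF probe sets that passed was 2 with the median value as pseudocount, with each array as its own sample and with the culture as a random block. It was 1 with median centring, with probe sets below the median in every group left out and with only those groups fitted, and 0 to 1 without 1 culture. Pdgfra B passed there at 0.93 with the median as pseudocount, 1.45 with median centring, 1.35 with the filter and with only those groups, 1.32 with single arrays and 1.33 with the random block, and lay at 1.21 to 1.52 without 1 culture. Pdgfra C passed at 0.77 with that pseudocount, 1.34 with single arrays and 1.33 with the random block. In FBS against LD, 3 PDGF probe sets passed when the dimmer 50% were left out and 3 to 6 without 1 culture. Pdgfra B passed there at -0.87 with quantile normalization and with median centring, -0.82 with single arrays, -0.81 with the random block, -1.32 with the GAPDH covariate and -0.78 with only those groups, and lay at -0.91 to -0.69 without 1 culture. Pdgfra C lay at -1.54 to -1.18 without 1 culture. In RA/Fsk against HD, Pdgfa B passed at -0.62 with quantile normalization, -0.64 with median centring, and -0.55 with single arrays and with the random block. Pdgfa A missed the threshold there at -0.56 with array 3r alone for FBS culture 3, without the intensity trend and with only those groups, and at -0.55 with the GAPDH covariate, and lay at -0.62 to -0.46 without 1 culture. The causes were not tested.

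With the culture number as a replicate block, Pdgfa A in RA/Fsk against HD (-0.55, adjusted p = 0.0606) and Pdgfra D in FBS against LD (-0.59, adjusted p = 0.0628) lost their calls, and no other PDGF call changed. Each culture correlated best with its own number in 6 of 6 cases between LD and RA/Fsk and 4 of 4 between HD and LD, and in 2 to 3 of 6 or 3 of 8 in the other pairs, so the numbers are only a hint of pairing there. Of counts over all probe sets, HD against LD moved from 75 to 465 with single arrays, 252 with the random block, 48 with array 3r alone, and 23 to 45 without HD culture 2 or 4 or LD culture 1 or 3. With only the groups compared, RA/Fsk against LD went to 362 from 721 and RA/Fsk against HD to 502 from 889, which was 559 without HD culture 4. Median centring shifted the median of all probe sets in FBS against HD to -0.16 from 0.03. It moved the share of higher calls to 38.8% from 53.7% there, and to 55.3% from 45% in RA/Fsk against FBS. With no counts behind the intensities, the dim probe sets near the mouse and yeast controls limit what can be said of Pdgfb, Pdgfrb and Pdgfra D.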
